A study of Mus musculus with 4 samples.

Results

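The messages of pre-mRNA splicing factors were examined in NIH-3T3 cells, an immortalized line of mouse embryonic fibroblasts. The splicing factors were all array probes whose gene symbol starts with Srsf, Sfrs, Sf3a, Sf3b, Snrp, Hnrnp, Hnrp, Prpf or, before a digit, Lsm, together with those of U2af1 and U2af2. The rule used names and no measured value, but it was chosen with earlier results of these data known. It found 131 of the 25697 probes on the array, for 72 of 16593 genes. Of these, 16 probes belonged to 9 genes of SR proteins, 41 to 18 genes of hnRNP proteins and 74 to 45 genes of snRNP and associated proteins. The classes follow the gene symbol alone, so a gene placed with the snRNPs need not encode a part of one. U2af1 was not analysed here, and U2af2 had 3 probes.

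Fibroblasts that had received microvesicles, small membrane particles shed by cultured cardiomyocytes, were compared with control fibroblasts that had not, with 2 arrays in each group. Both groups grew in Claycomb medium, and the labels give no difference in genotype. The labels do not say whether replicates were separate cultures, and the p-values below then cover no more than the spread among these arrays, which may be technical. All 4 arrays lay on 1 chip, and position on the chip and group cannot be told apart.

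Splicing removes introns from pre-mRNA and joins the exons. It is carried out by the spliceosome, built from small nuclear ribonucleoproteins (snRNPs), in which an RNA sits on a ring of Sm or Sm-like (Lsm) proteins. SR proteins are rich in serine and arginine and mostly promote the use of nearby exons, and hnRNP proteins coat nascent RNA and often repress it. Nearly every cell uses proteins of all these kinds, fibroblasts included.

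The arrays were dim, and most splicing factor probes could not be told from background. A probe was called detected where its detection p, which sets its brightness against that of the negative controls, was under 0.05. On the arrays of microvesicle replicates 1 and 2, 41 and 35 of the 131 probes were detected, against 34 and 49 on those of control replicates 1 and 2. The groups overlapped in this number, and the spread between the control arrays was wider than that between the microvesicle arrays. Of all 25697 probes, 19% and 14.6% were detected on the microvesicle arrays, against 17.1% and 20.5% on the control arrays. The 95th percentile of intensity was 75.1 and 59.6 on the microvesicle arrays, against 76.2 and 115 on the control arrays, and control replicate 2 was the brightest.

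**Figure D1:**
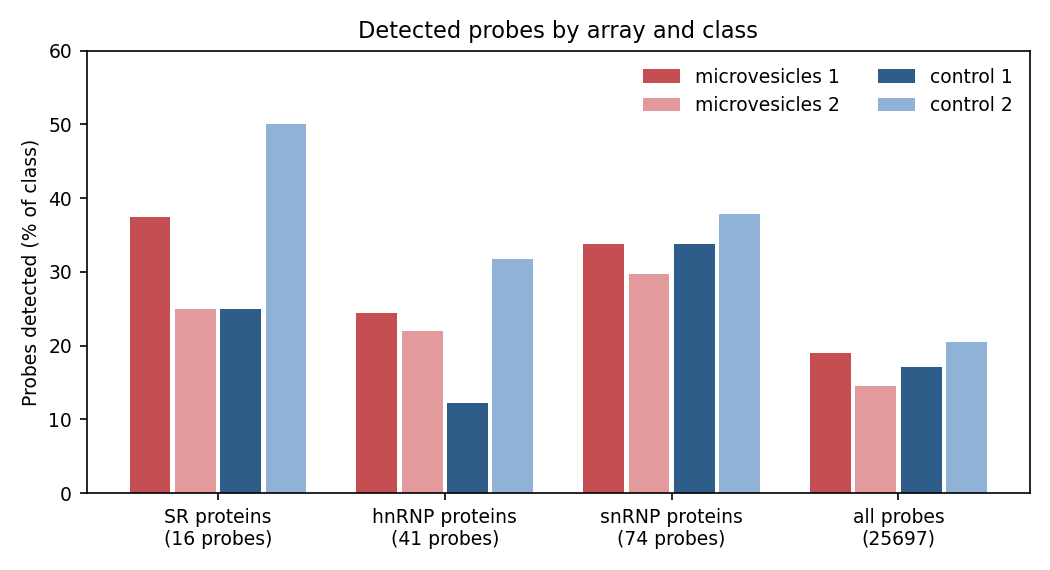
The bars give the share of probes detected on each array (%), for SR, hnRNP and snRNP proteins and for all probes. The share of hnRNP probes was 24.4% and 22% on the microvesicle arrays, against 12.2% and 31.7% on the control arrays, so that the controls lay on both sides of the microvesicle arrays.

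In all, 68 splicing factor probes were detected on no array and 25 on all 4. A probe was kept for testing where it was detected on both arrays of at least 1 group. This left 35 probes (26.7%, against 14.6% of all probes) for 29 genes, made up of 4 SR, 7 hnRNP and 24 snRNP probes. The other 43 genes had no kept probe. Among them were the SR genes Srsf3, Srsf6, Srsf9, Srsf10 and Srsf12, the hnRNP genes Hnrnpa2b1, Hnrnpd, Hnrnpf, Hnrnph1 and Hnrnpu, and the snRNP genes Snrpe, Sf3b1, Prpf8 and U2af2. Prpf8, the scaffold at the heart of the spliceosome, and Sf3b1, which helps to hold the branch point, had no probe detected on any array. Their levels are unknown here. No splicing factor was detected on both microvesicle arrays and on 0 control arrays, and 1, Sf3b2, was detected on both control arrays and on 0 microvesicle arrays.

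Known markers were read in the same way. Of 13 fibroblast markers on the array, 10 were detected on at least 1 array and 7 on all 4, while Col1a1, Pdgfra and Serpinh1 were detected on none. Of 16 cardiomyocyte markers, 13 were detected on no array, with Nppa, Myh7, Actc1, Tnni3 and Myl2 among them, and the summed intensity of that whole list was 707 and 727 in microvesicle cells, against 743 and 764 in controls. The summed intensity of the fibroblast markers was 4046 and 2317 in microvesicle cells, against 2856 and 5387 in controls. The groups overlapped in the fibroblast sum, which was not adjusted for the brightness of the arrays. It does not show that single markers were unchanged. By the limma test described below, 1 of the 8 kept fibroblast probes was higher in microvesicle cells, beside 3.43% of all kept probes. This was a Sparc probe (ILMN_3136561, log2 fold change 0.82, adjusted p = 0.0469). The other 7 did not pass. The cardiomyocyte sum was lower on both microvesicle arrays than on both control arrays, but 15 of its 18 probes were detected on no array. That sum was therefore mostly background. The median intensity of all probes was likewise 39.9 and 40.2 on the microvesicle arrays, against 41.1 and 41.2 on the control arrays. The lower sum cannot be read as a lower level of cardiomyocyte messages.

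Values below are normalized log2 signals (background-corrected and quantile-normalized) unless intensity is named. Intensity is how bright the beads carrying a probe were on average, before any adjustment. Fold changes are microvesicles over control on the log2 scale, and a probe rose or fell where limma's p, adjusted over all 3762 kept probes, was under 0.05. In RNA from whole cultures, a change in every cell and a change in some cells cannot be told apart.

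**Figure D2:**
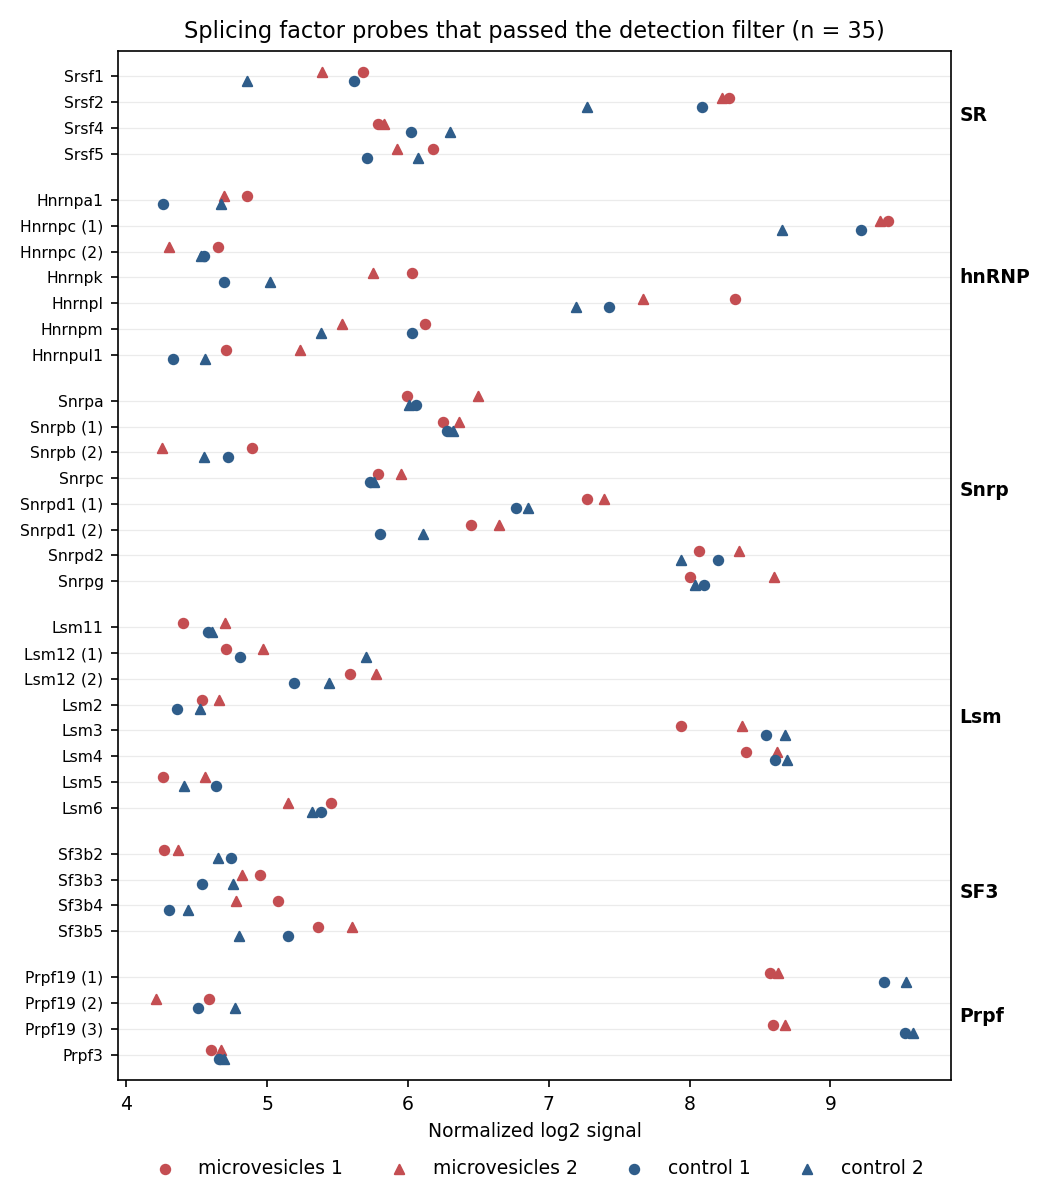
Each row is 1 of the 35 kept splicing factor probes, and the horizontal axis is its normalized log2 signal. Circles are replicate 1 and triangles replicate 2, in red for microvesicle cells and in blue for controls, and a number in brackets counts the probes of a gene. The Prpf19 probes (1) and (3) show the groups apart, at 8.57 to 8.68 in microvesicle cells and 9.38 to 9.59 in controls.

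Of the 35 probes, 3 passed the test (8.57%), beside 284 of 3762 probes overall (7.55%). Hnrnpk rose, 1 probe of 35 beside 3.43% of all kept probes, and Prpf19 fell with both of its bright probes, 2 of 35 beside 4.12%. These shares lie close to the background, so the count says nothing particular about splicing factors. At an unadjusted p under 0.05, 9 of the 35 (25.7%) passed, 7 higher and 2 lower in microvesicle cells. Of all 3762 kept probes, 932 (24.8%) passed at that level, 414 higher and 518 lower. Among the 7, Hnrnpul1 and Sf3b4 were kept only through the microvesicle group, so the filter favoured their positive sign. The median log2 fold change of the 35 was 0.14, beside -0.06 over all kept probes. The 2 microvesicle values and the 2 control values did not overlap in 19 of the 35 (54.3%), beside 57.5% of all kept probes. On unadjusted intensity they did not overlap in 16 of the 35 (45.7%). The share of all kept probes on that scale is not given here, so this count cannot be set beside a background.

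Hnrnpk encodes a poly-C-binding protein with KH domains that takes part in splicing, transcription and translation. The probe that rose (ILMN_1245987) had 6.03 and 5.75 in microvesicle cells, against 4.69 and 5.02 in controls. Both microvesicle arrays lay above both controls on this scale. The means were 5.89 ± 0.2 in microvesicle cells and 4.85 ± 0.23 in controls (SD, n = 2 each), a log2 fold change of 1.03 ± 0.2 (SE) with a 95% interval of 0.56 to 1.5 and an adjusted p of 0.0257. The intensities before normalization were 81.3 and 57.8 in microvesicle cells, against 49.8 and 69 in controls. There the groups overlapped, since the dimmer microvesicle array, replicate 2, lay below control replicate 2. Another pair of Hnrnpk probes were not kept. ILMN_2708776, detected on no array, had 4.19 and 4.43 in microvesicle cells, against 4.22 and 4.33 in controls. ILMN_2784821, detected on 1 control array alone, had 4.18 and 4.26 in microvesicle cells, against 4.31 and 4.54 in controls. Both lay near the floor of the scale, a log2 value of 4. The lowest log2 signal of a detected probe was 4.42 and 4.51 on the microvesicle arrays, against 4.45 and 4.4 on the control arrays. With control replicate 1 left out the Hnrnpk change was 0.88 (adjusted p = 0.145), without microvesicle replicate 1 it was 0.91 (adjusted p = 0.208), and without microvesicle replicate 2 it was 1.26 (adjusted p = 0.244). Without control replicate 2 it stayed past the threshold (0.98, adjusted p = 0.0351).

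Prpf19 is a ubiquitin ligase and the core of the complex of the same name, which is needed when the spliceosome is activated for catalysis. The probe ILMN_2934534 had 8.59 and 8.68 in microvesicle cells, against 9.53 and 9.59 in controls. ILMN_2934532 had 8.57 and 8.63 in microvesicle cells, against 9.38 and 9.54 in controls. Both probes placed each microvesicle array below each control, and the gap between groups was wide beside the spread within them. The log2 fold change was -0.92 ± 0.17 (SE, 95% interval -1.33 to -0.52, adjusted p = 0.022) for ILMN_2934534. For ILMN_2934532 it was -0.86 ± 0.18 (SE, 95% interval -1.27 to -0.45, adjusted p = 0.0305). As ratios of microvesicles over control these are 0.527 and 0.551, and the probes measure 1 annotated transcript, so they are no independent replicates of each other.

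The fall of Prpf19 was also present before normalization. The intensity of ILMN_2934534 was 335 and 239.6 in microvesicle cells, against 641 and 1317 in controls, with standard errors over beads of 13.9 and 9.24 against 22.9 and 44. That of ILMN_2934532 was 324 and 228 in microvesicle cells, against 570.2 and 1299 in controls. The groups did not overlap in either. Another probe, ILMN_2934533, carries the same transcript accession but was dim, at 4.59 and 4.21 in microvesicle cells, against 4.51 and 4.77 in controls. It was detected on 1 microvesicle array and both controls, and did not pass the test (log2 fold change -0.24 ± 0.21 SE, adjusted p = 0.491). Without control replicate 1 the changes of the bright probes were -0.96 and -0.95 (adjusted p = 0.117 and 0.119 for ILMN_2934534 and ILMN_2934532). Without microvesicle replicate 1 they were -0.85 and -0.8 (adjusted p = 0.205 each), and without microvesicle replicate 2 -0.93 and -0.86 (adjusted p = 0.246 and 0.254). Without control replicate 2 they were -0.97 and -0.85 (adjusted p = 0.0297 and 0.0513). Neither Hnrnpk nor Prpf19 passed where the medians of all probes were aligned in place of quantile normalization or where dim probes were not filtered, although each kept its direction.

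**Figure D3:**
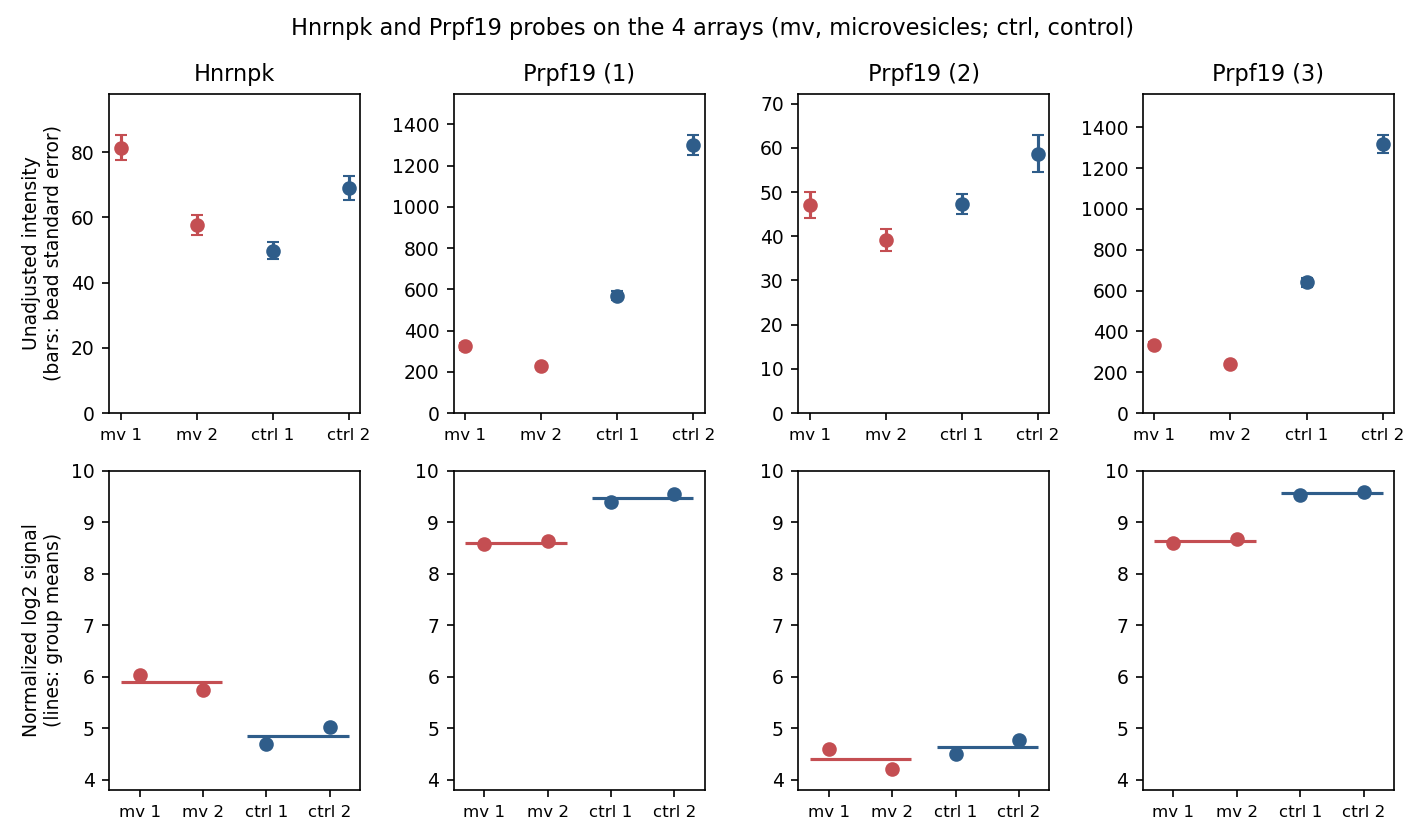
The upper panels plot unadjusted intensity with the standard error over beads, and the lower panels normalized log2 signal with a line at each group mean, for the kept probes of Hnrnpk and Prpf19 on the 2 microvesicle arrays (red) and the 2 control arrays (blue). The intensities of Hnrnpk overlap between groups (57.8 to 81.3 in microvesicle cells, 49.8 to 69 in controls), and those of Prpf19 (1) and (3) do not.

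The sequences around the start sites of the genes that passed are shown because the calls among splicing factors rest on them. They are RefSeq windows of GRCm38.p6, each of 300 bases around the annotated start of the gene, most of them before it. Capitals mark the CCAAT box and, in Prpf19, the core of ETS factor sites (CCGGAA). The Hnrnpk window, chr13:58402068-58402367 on the minus strand, holds 2 CCAAT matches and has a GC content of 70.7%. The Prpf19 window, chr19:10894981-10895280 on the plus strand and 1 of 2 listed for that gene, holds 1 match of each motif and has a GC content of 52.7%.
Hnrnpk: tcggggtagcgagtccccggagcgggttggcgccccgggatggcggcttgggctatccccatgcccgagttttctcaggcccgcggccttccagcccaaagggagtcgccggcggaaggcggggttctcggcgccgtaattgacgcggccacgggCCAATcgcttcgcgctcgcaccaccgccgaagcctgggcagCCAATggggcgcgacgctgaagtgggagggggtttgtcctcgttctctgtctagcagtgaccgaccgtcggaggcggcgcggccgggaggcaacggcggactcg
Prpf19: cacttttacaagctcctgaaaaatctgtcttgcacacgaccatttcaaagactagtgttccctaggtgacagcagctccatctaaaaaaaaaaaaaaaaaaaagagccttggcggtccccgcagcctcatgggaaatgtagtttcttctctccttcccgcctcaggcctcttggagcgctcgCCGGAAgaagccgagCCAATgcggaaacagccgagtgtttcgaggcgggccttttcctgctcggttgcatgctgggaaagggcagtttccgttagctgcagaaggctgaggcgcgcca
Windows were found for 62 of the 72 splicing factor genes, 83 in all, and were searched on both strands for the CCAAT box, the ETS core given above, the GC box (GGGCGG) and the TATA box (letters TATAAA). The matches shown do not overlap each other. The ETS core stood in 41% of the 83 windows, beside 14.9% of all 32851 windows in the table, and the GC box in 67.5% beside 35.7%. The CCAAT box stood in 47% beside 37.4%, and the TATA box in 8.43% beside 13.6%. The median GC content was 60.3% in the splicing factor windows and 52.7% in all windows. A match is a run of letters and not a site that a factor was shown to bind.

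None of the 4 kept SR probes passed the test. Srsf2, known as SC35, binds exonic enhancers, and it had 8.28 and 8.23 in microvesicle cells, against 8.09 and 7.27 in controls. The groups did not overlap on this scale, the controls lay far apart, and the log2 fold change of 0.58 ± 0.27 (SE, 95% interval -0.04 to 1.2) did not pass (adjusted p = 0.228). It was 0.16 without control replicate 2 and 0.99 without control replicate 1. The Srsf2 intensities overlapped, with 268 and 175 in microvesicle cells, against 258 and 299 in controls. Srsf4 had 5.79 and 5.83 in microvesicle cells, against 6.02 and 6.3 in controls (-0.35 ± 0.19 SE, adjusted p = 0.287). This was the 1 SR probe with a negative fold change. Srsf1, which was among the first SR proteins described, and Srsf5 overlapped between the groups. The median over the SR probes was 0.23, beside -0.06 over all kept probes. Aligning the median of every array gave -0.44 (all probes) or 0 (kept probes) in its place. The median over all kept probes was then -0.39 or 0.05. The SR median thus lay above that of all kept probes as reported and slightly below it in both alignments, so it has no settled direction.

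Of the 7 kept hnRNP probes, 1 rose (Hnrnpk), beside 3.43% of all kept probes, and none fell, beside 4.12%. A positive fold change was found in 6 of the 7, beside 1655 of all 3762 kept probes. Hnrnpl, which binds CA repeats and regulates exons near them, had 8.32 and 7.67 in microvesicle cells, against 7.43 and 7.19 in controls. Its log2 fold change of 0.68 ± 0.24 (SE, 95% interval 0.12 to 1.25) did not pass (adjusted p = 0.133), although the groups did not overlap. Its intensities were 275 and 129.9 in microvesicle cells, against 179 and 282 in controls, and on that scale both microvesicle arrays lay below control replicate 2. Hnrnpc, which binds uridine tracts and packages nascent RNA, had 1 bright kept probe (ILMN_1235470) with 9.41 and 9.35 in microvesicle cells, against 9.22 and 8.66 in controls. The groups were apart on this scale, with control replicate 2 the lowest, and the change of 0.44 ± 0.22 (SE) did not pass (adjusted p = 0.266). It was 0.2 without control replicate 2 and 0.73 without control replicate 1, and the intensities of 618 and 408 in microvesicle cells, against 518 and 764 in controls, overlapped. Another Hnrnpc probe (ILMN_2511051), detected on 1 microvesicle array, had 4.65 and 4.3 in microvesicle cells, against 4.55 and 4.53 in controls, and gave -0.07 (adjusted p = 0.845). The kept probes of Hnrnpa1, Hnrnpm and Hnrnpul1 did not pass either. Those of Hnrnpa1 and Hnrnpul1 were detected on both microvesicle arrays and 1 control array. They were thus kept only through the group in which they were higher, and the filter favoured their positive sign. The median of the hnRNP probes was 0.44, beside -0.06 over all kept probes, and was -0.14 with the medians of all probes aligned, where the median over all kept probes was -0.39.

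The Snrp genes encode the Sm proteins of the ring and proteins bound to single snRNPs, and none of their 8 kept probes passed. Snrpd1, an Sm protein, was measured by 2 kept probes. ILMN_2610105 had 6.45 and 6.65 in microvesicle cells, against 5.8 and 6.11 in controls. ILMN_1225361 had 7.27 and 7.39 in microvesicle cells, against 6.77 and 6.85 in controls. Both probes had the groups apart on this scale, but their intensities overlapped. Those of ILMN_2610105 were 99.3 and 79.6 in microvesicle cells, against 74.4 and 138 in controls. Those of ILMN_1225361 were 151 and 109.9 in microvesicle cells, against 119 and 227 in controls. Control replicate 2 had the highest intensity in both. The log2 fold changes were 0.59 ± 0.2 (SE, 95% interval 0.14 to 1.05, adjusted p = 0.113) for ILMN_2610105 and 0.52 ± 0.18 (SE, 95% interval 0.11 to 0.93, adjusted p = 0.119) for ILMN_1225361. Both intervals lay above 0, but neither probe passed over all kept probes. Their changes were -0.17 and -0.36 where the medians of all probes were aligned. The median over all kept probes was then -0.39. The 2 probes lay 0.22 and 0.03 above it, against 0.66 and 0.58 as reported. Snrpg, the Snrp probe with the highest mean, had 8 and 8.6 in microvesicle cells, against 8.1 and 8.04 in controls (0.23 ± 0.23 SE, adjusted p = 0.554). Its groups overlapped. The other kept probes, of Snrpa, Snrpb, Snrpc and Snrpd2, did not pass, and the median of the 8 was 0.17.

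None of the 8 kept Lsm probes passed. The proteins Lsm2 to Lsm8 form the ring on the U6 RNA, and Lsm11 belongs to the U7 particle that trims histone messages. Lsm3 had 7.94 and 8.37 in microvesicle cells, against 8.54 and 8.68 in controls. Both microvesicle arrays were lower, with a log2 fold change of -0.46 ± 0.21 (SE, 95% interval -0.93 to 0.02, adjusted p = 0.217). With the medians of kept probes aligned, the Lsm3 change was -0.92 and passed (adjusted p = 0.0266). Lsm4, the Lsm probe with the highest mean, had 8.4 and 8.62 in microvesicle cells, against 8.61 and 8.69 in controls (-0.14, adjusted p = 0.65). Its groups touched within a few hundredths and overlapped. Lsm12 had 2 kept probes that pointed in opposite directions. ILMN_2496121 had 4.71 and 4.97 in microvesicle cells, against 4.81 and 5.7 in controls (-0.41 ± 0.29 SE, adjusted p = 0.403). ILMN_2730926 had 5.59 and 5.77 in microvesicle cells, against 5.19 and 5.44 in controls (0.36 ± 0.19 SE, adjusted p = 0.278). The first overlapped between groups on this scale, the second did not on this scale but did in intensity, and no direction can be given for Lsm12. The median of the 8 Lsm probes was -0.08.

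The SF3b proteins hold the U2 snRNP to the branch point of the intron. None of the 4 kept SF3 probes passed. On the normalized scale the groups did not overlap in any of the 4, beside 57.5% of all kept probes. Sf3b2 and Sf3b4 were kept only through the group in which they were higher, so the filter favoured their separation. The count is therefore no trait of the SF3 probes. On unadjusted intensity the groups did not overlap in Sf3b2 alone, and the share of all kept probes on that scale is not given here. Sf3b4 had 5.08 and 4.78 in microvesicle cells, against 4.3 and 4.44 in controls, where it was detected on 1 array (0.56 ± 0.19 SE, adjusted p = 0.121). Sf3b5 had 5.36 and 5.6 in microvesicle cells, against 5.15 and 4.8 in controls (0.51 ± 0.2 SE, adjusted p = 0.167). The intensities overlapped in both, with 55.9 and 47.2 for Sf3b4 in microvesicle cells, against 43.3 and 47.3 in controls, and 62.4 and 55.5 for Sf3b5 in microvesicle cells, against 57.4 and 59.9 in controls. The Sf3b5 change was 0.28 without control replicate 2 and 0.07 with the array medians over all probes aligned. In the latter setting the median over all kept probes was -0.39. Sf3b5 lay 0.46 above that median, against 0.57 above it as reported. Sf3b2 had 4.27 and 4.37 in microvesicle cells, against 4.74 and 4.65 in controls. As it was not detected on the microvesicle arrays, its value there is a bound. The bound puts Sf3b2 1.17-fold lower in microvesicle cells, a point estimate without sampling error. The measured log2 fold change was -0.38 ± 0.18 (SE, 95% interval -0.78 to 0.03, adjusted p = 0.232). That interval includes no change, so a lower level of Sf3b2 was not shown. The bound takes, for each microvesicle array, the lowest signal of any detected probe. Apart from Prpf19, the 1 kept Prpf probe was that of Prpf3, a protein of the U4/U6 snRNP, which had 4.6 and 4.67 in microvesicle cells, against 4.66 and 4.69 in controls (-0.04, adjusted p = 0.891). Over all 24 kept snRNP probes the median was -0.02, with 12 positive and 12 negative fold changes.

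**Figure D4:**
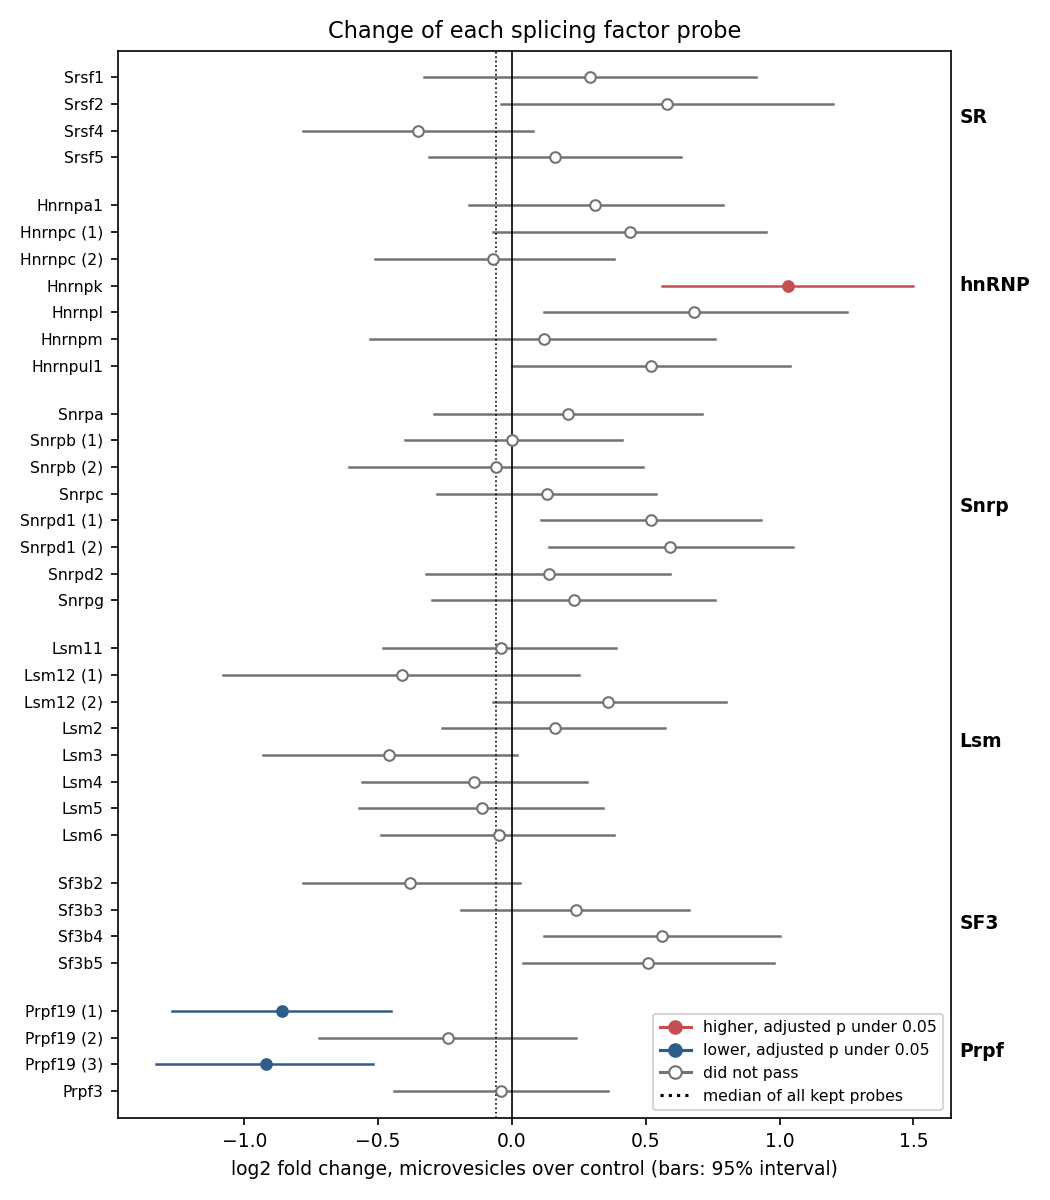
Each row is 1 kept splicing factor probe, with its log2 fold change, microvesicles over control, on the horizontal axis and its 95% interval as a bar. Filled points passed the adjusted test (Hnrnpk at 1.03, Prpf19 at -0.86 and -0.92), open points did not, and the dotted line is the median of all kept probes at -0.06.

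The medians of the classes were set beside the median over all probes tested in the same setting, as a description. In the reported setting the hnRNP median was 0.5 above it, the SR median 0.29 and the snRNP median 0.04. The hnRNP distance was 0.34 without background correction, 0.58 with the submitters' processed values and 0.26 where medians were aligned in place of quantile normalization. It lay between 0.43 and 0.49 when 1 array was left out. With no filter on dim probes, where 131 splicing factor probes were tested, it was 0.02. The SR distance was -0.05 where medians were aligned and with no filter, and the snRNP distance lay between -0.04 and 0.16 in the settings plotted. With 7 probes or fewer in the hnRNP and SR classes, and Hnrnpk among the hnRNP probes, each median rests on few values.

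**Figure D5:**
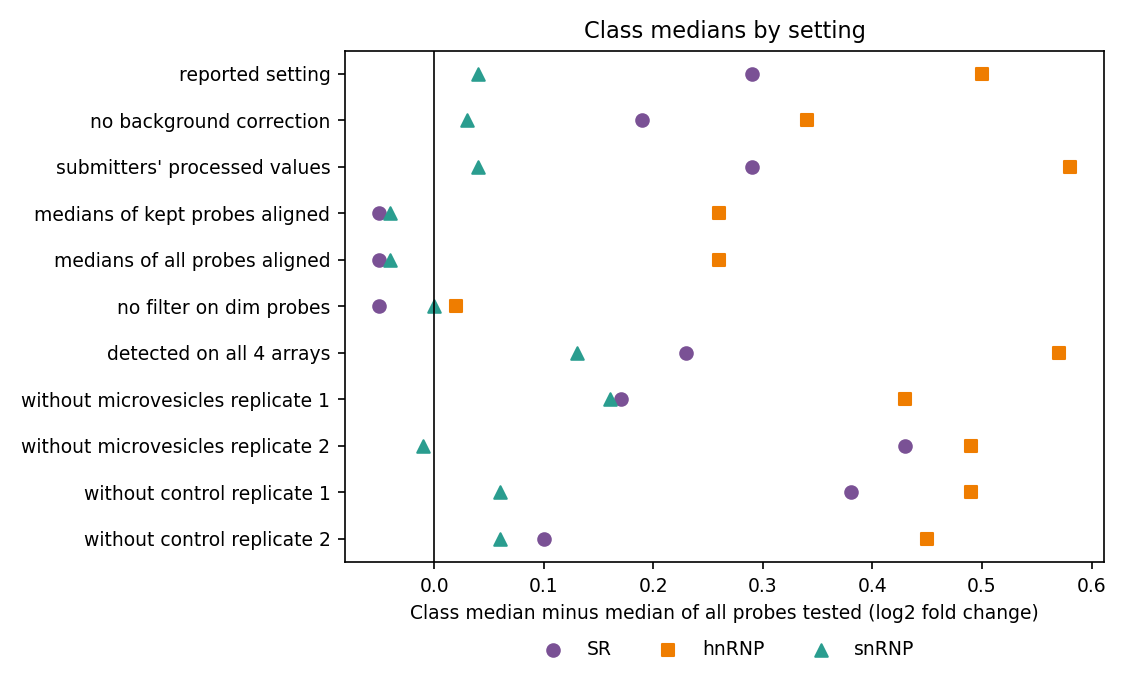
Each row is a setting, and the horizontal axis is the median log2 fold change of a class minus that of all probes tested in the setting. Circles are SR, squares hnRNP and triangles snRNP proteins. The hnRNP squares lie between 0.26 and 0.58 apart from 0.02 with no filter on dim probes, and the SR circles between -0.05 and 0.43.

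Other genes of the splicing machinery were taken from 4 lists with 98 symbols, of which 85 genes were on the array. Their 151 probes included 85 that were detected on no array, and 41 were kept, for 28 genes. Of the 41, 2 rose and 2 fell (background 3.43% and 4.12%), and the median was -0.13. All of these lay in the list of helicases, active-site and other spliceosome proteins (2 higher and 1 lower of 22 kept probes) and in that of regulators (1 lower of 8). The former list also held most of the kept probes. Ddx5, a DEAD-box RNA helicase also called p68, had 7.24 and 7 in microvesicle cells, against 5.44 and 5.59 in controls, and rose by 1.61 ± 0.19 (SE, adjusted p = 0.00485). Its groups lay far apart beside the spread within each. Txnl4a, a small protein of the U5 snRNP, had 7.43 and 7.34 in microvesicle cells, against 6.23 and 6.39 in controls at the probe that rose (ILMN_3114365, 1.08 ± 0.18 SE, adjusted p = 0.0136). The other 3 kept Txnl4a probes gave 0.65, 0.62 and -0.14 (adjusted p = 0.102, 0.115 and 0.703), so the gene's probes disagreed in size and 1 of them in sign.

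Sart1, which joins the tri-snRNP to the spliceosome, had 6.12 and 5.84 in microvesicle cells, against 6.66 and 7.23 in controls, and fell by 0.96 on the log2 scale (SE 0.23, adjusted p = 0.0481). Rbm5, an RNA-binding protein that regulates exon skipping, had 6.93 and 6.51 in microvesicle cells, against 7.5 and 7.61 in controls, and fell by 0.83 (SE 0.2, adjusted p = 0.0495). Both adjusted p-values lay just under the threshold, and both calls were lost when any 1 array was left out. The calls of Ddx5 and Txnl4a were lost without control replicate 1 or either microvesicle array, with changes of 1.51 to 1.78 and 0.99 to 1.14 over the 4 fits. As with Hnrnpk and Prpf19, these 4 genes lost their calls when all-probe medians were aligned and when dim probes were not filtered. Txnl4a also did not pass with the medians of kept probes aligned (0.63, adjusted p = 0.181), nor Rbm5 with the processed values (-0.8, adjusted p = 0.057). Among exon junction and coactivator genes, the kept probes of Acin1 (-0.28, adjusted p = 0.384) and Eif4a3 (-0.17, adjusted p = 0.638) did not pass. Among genes of snRNP assembly none of 9 kept probes passed, and Sart3, which recycles U6 snRNPs, had the largest absolute change (-0.41, adjusted p = 0.296). Clns1a, a chaperone of Sm proteins, had 2 kept probes with a change of 0.21 each (adjusted p = 0.564 and 0.614).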

How the data were processed

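Total RNA of 4 NIH-3T3 samples was amplified, labelled with Cy3 and read on Illumina bead arrays. The submitters' processing notes name BeadStudio 3.3. The intensity values used were deposited without background subtraction or normalization. The deposited detection p-values compare a probe with the negative controls. A table of processed intensity values was also deposited, and no source used here states its normalization. Across kept probes, which are not independent replicates, its array differences correlated with those computed here at r of 0.991 to 0.996.

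In R 4.3.3 with limma 3.58.1, neqc used the detection p-values to correct the background, and log2 was taken after an offset of 16 and quantile normalization. The offset compresses the changes of dim probes. Of 25697 probes, the 3762 with a detection p under 0.05 throughout at least 1 group were kept. Groups were compared with lmFit and eBayes, two-sided, with Benjamini-Hochberg adjustment over all kept probes and 0.05 as the threshold. No exact permutation test was used, since the smallest p it allows for 2 against 2 is 0.333. The number of arrays limits the precision. The test was tried on simulated data first.

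Gene symbols came from a platform annotation table, and RefSeq's gene table for GRCm38.p6 held all 72 splicing factor symbols. Different probes of a gene were kept apart. The members, the lists of other genes and the rules were chosen with earlier results of these data known. The rule for naming took every splicing factor probe that passed, per class the 2 with the largest absolute change and the one with the highest mean, further kept probes of those genes, probes detected in 1 group alone, and up to 2 genes that rose and 2 that fell per list of other genes, or the 2 with the largest change where none passed. Srsf1, Srsf5, Prpf3 and other genes named outside it were chosen after their values were seen. Alternatives were no background correction, aligned medians of all or of kept probes, the processed values, no filter, detection on all 4 arrays, eBayes with trend and robust settings, replicate number as a block, and each array left out.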

Additional observations from a re-analysis of the deposited data

How the results depend on the processing

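Of 19 splicing factor probes named by the rule, 9 kept their direction in every setting, Hnrnpk and the bright Prpf19 probes among them, and 10 changed sign in at least 1. The causes of the differences below were not tested. By design, fewer samples were fitted where an array was left out, and more probes were adjusted for without the filter. How much these contributed was not tested either.

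With the medians of all probes aligned, 0 probes passed (0 higher, 0 lower) and 398 had an unadjusted p under 0.05. Of the splicing factors, 0 passed (0 higher, 0 lower), 3 at an unadjusted p under 0.05. The class medians were -0.44 (SR), -0.14 (hnRNP) and -0.43 (snRNP), beside -0.39 over all kept probes. The changes turned to -0.3 for Hnrnpc ILMN_1235470, -0.25 for Hnrnpl, -0.22 for Lsm12 ILMN_2730926, -0.36 and -0.17 for Snrpd1 ILMN_1225361 and ILMN_2610105, -0.66 for Snrpg, -0.36 for Srsf2, -0.16 for Txnl4a ILMN_2478523 and -0.18 and -0.49 for Clns1a ILMN_2691798 and ILMN_2649083. Hnrnpk was at 0.43 (adjusted p = 0.618) and the bright Prpf19 probes at -1.75 and -1.71 (adjusted p = 0.444 each).

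With the medians of kept probes aligned, 353 probes passed, 76 higher and 277 lower (21.5% higher, beside 45.4% as reported), and 196 of them were among the 284. The median over all kept probes was 0.05. The SR median was 0 and the hnRNP median 0.31, and 4 splicing factor probes passed, with Lsm3 added. The changes turned to 0.31 for Hnrnpc ILMN_2511051, 0.05 for Prpf19 ILMN_2934533, -0.22 for Snrpg and -0.05 for Clns1a ILMN_2649083.

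Without the filter 29 probes passed of 25697 (14 higher, 15 lower), and 0 splicing factor probes (0 higher, 0 lower; 15 at an unadjusted p under 0.05), with class medians of -0.04 (SR) and 0.02 (hnRNP). With detection on all 4 arrays the hnRNP median was 0.56 and the snRNP median 0.13, and without background correction the hnRNP median was 0.3. With trend and robust settings 593 probes passed (261 higher, 332 lower), and 2 splicing factor probes higher, with Hnrnpl added (adjusted p = 0.033). With the processed values the same 3 splicing factor probes passed.

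Leaving out 1 array gave 0 to 165 passing probes (0 to 84 higher, 0 to 81 lower) and 0 to 2 splicing factor probes (0 to 1 in each direction). The fits without microvesicle replicate 1 or 2 had 0 calls, with 792 and 587 probes at an unadjusted p under 0.05, that without control replicate 1 had 21 and that without control replicate 2 had 165. The class medians ran from 0.04 to 0.39 (SR), 0.36 to 0.45 (hnRNP) and -0.05 to 0.08 (snRNP). Ranges crossing 0 were -0.89 to 0.03 for Lsm12 ILMN_2496121, -0.25 to 0.13 for Hnrnpc ILMN_2511051, -0.07 to 0.54 for Snrpg, -0.35 to 0.05 for Txnl4a ILMN_2634749, -0.45 to 0.08 for Eif4a3, and -0.06 to 0.5 and -0.05 to 0.41 for Clns1a ILMN_2691798 and ILMN_2649083. A lone array was assumed to vary like the other group.

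The deviations of same-numbered arrays from their group means had r = -0.133 over 3762 probes, which are not independent. With so few arrays this cannot show whether same-numbered samples were prepared together. With the replicate number as a block, 313 probes passed, 266 of them among the 284. The same 3 splicing factor probes passed, at adjusted p-values of 0.0191 (Hnrnpk), 0.0215 and 0.0306 (Prpf19). A crossed pairing, chosen after seeing the data, gave 396 calls and 3 among splicing factors.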
